A study of Mus musculus with 12 samples.

Results

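The genes described here are 32 genes of sterol and fatty acid synthesis, read out in cultured mouse osteoclast precursors. They were chosen by name from 23863 genes in the count table, and all 32 were found and passed the filter on low counts. Of these, 19 encode enzymes from acetyl-CoA to cholesterol (the sterol branch), 8 encode enzymes that make, elongate or desaturate fatty acids (the fatty acid branch), and 5 encode proteins that control these enzymes or move sterol in the cell (the control genes). The cells were bone marrow precursors sorted as CD45R- CD3- CD11b-/lo CD115+, from female and male RUNX1 fl/+ mice. These mice carry 1 floxed Runx1 allele, no Cre is named in the labels, and sample titles carry the tag WT. Both sexes were cultured with M-CSF, a growth and survival factor of macrophages and their precursors, either alone or with 30 ng/ml RANKL, the cytokine that turns these precursors into osteoclasts. Titles give 3 days of treatment, while the growth protocol in the labels gives a longer culture. Each of the 4 groups (Female M-CSF, Female M-CSF+RANKL, Male M-CSF and Male M-CSF+RANKL) holds 3 libraries, so 6 libraries had no RANKL and 6 had it. Whether replicates are separate mice is not stated in the labels, and each p-value therefore reflects only how these samples vary, possibly for technical reasons.

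Cholesterol is built from acetyl-CoA through mevalonate. Mevalonate is turned into isoprenoid diphosphates, which also serve to anchor small GTPases to membranes, and then into squalene and a series of sterols. Fatty acids are built from the same acetyl-CoA, elongated, and given double bonds by desaturases. Both sets of enzymes are known targets of the SREBP transcription factors, which SCAP escorts out of the endoplasmic reticulum when sterols are low and which INSIG proteins hold back when sterols are high. In osteoclasts the isoprenoid step is known as the target of nitrogen-containing bisphosphonates, drugs against bone loss.

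Total counts per library ran from 10646697 to 14113420 without RANKL and from 14303174 to 15983769 with it, so depth went with the treatment. The labels were checked first: Acp5, the tartrate-resistant acid phosphatase of osteoclasts, rose from 1.54 to 3.00 CPM (per-million counts, with library totals scaled by TMM) without RANKL to 3949 to 5753 CPM with it, and the summed level of 10 osteoclast markers went from 73.4 to 79.8 CPM to 29358 to 39126 CPM. Runx1 itself was at 59.8 to 65.9 CPM without RANKL and at 33.4 to 45.2 CPM with it (log2 fold change -0.68 ± 0.08, SE, adjusted p = 4.2e-06). Other features of the cultures moved with RANKL. The 18 genes of a cell division list all fell, with a median log2 fold change of -0.99 and a summed level of 4542 to 5356 CPM without and 2165 to 2694 CPM with RANKL. Of 10 macrophage markers, 8 fell, and their summed level went from 6187 to 7093 CPM down to 2925 to 3263 CPM. Mitochondrial counts made up 1.43 to 2.35% of a library without RANKL and 2.96 to 3.86% with it. Of 7 markers of adipocytes, cells rich in the same enzymes, only 4 are in the count table. In each library 4 to 5 of the 7 were at 0 or not in the table. Adipoq reached at most 0.0765 CPM and Cfd at most 0.200 CPM. The list's summed level was 27.4 to 70.0 CPM without and 7.29 to 13.1 CPM with RANKL, and the 2 of its genes that could be tested, Fabp4 and Pparg, fell by 3.74 and 1.83 on the log2 scale. Neutrophil markers summed to 57.5 to 319 CPM without and 60.3 to 331 CPM with RANKL, with 0 of 11 called. The markers of erythroid, B, T and stromal cells each summed to at most 4.43 CPM in any library. These sums leave out absent markers: the count table holds 2 of 7 for erythroid, 3 of 5 for B, 3 of 5 for T and 6 of 7 for stromal cells. At these low levels, T cell markers went from 0.0928 to 0.356 CPM without RANKL to 1.72 to 4.26 CPM with it. Stromal markers went from 0 to 0.557 CPM to 0.824 to 1.80 CPM. The 1 tested T cell marker rose (log2 fold change 8.18) and the 1 tested B cell marker fell (-0.86). The part of these shifts in the results on sterol and fatty acid genes was not tested.

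The promoters of 25 of the 32 genes could be read from RefSeq (GRCm38.p6), in windows from 250 bases before to 50 bases after a transcript's start. No window was listed for Fdft1, Sqle, Stard4, Scd1, Scd2, Fads1 and Fdps. The windows were searched on both strands for TCACNCCAC and its shorter form CACNCCAC, which lies within it (sterol regulatory element letters), for CACGTG (an E-box) and for CCAAT (the letters bound by NF-Y, a known partner of SREBPs). CCAAT was found in 20 of the 25 members' promoters, or 80%, against 42.9% of 9786 tested genes with a window and 37.4% of all 32851 windows. TCACNCCAC was found in 1 member, Hmgcs1, or 4%, against 1.34% of the tested genes, and CACNCCAC in 3 (Hmgcs1, Acat2 and Insig1), or 12%, against 7.52%. CACGTG was found in 5 members, or 20%, against 11.8%. A match describes letters in these windows and is not evidence of binding. The 250 bases before the start are printed below for 5 genes chosen to span the changes reported later: Hmgcs1, the member with the sterol element, Mvk, with 5 CCAAT matches, Fasn, with 3, and Fads2 and Scap, with none. Capitals mark TCACNCCAC and the CCAAT matches, which appear as ATTGG when they lie on the opposite strand, and 2 overlapping matches on opposite strands appear as 1 longer run. Each sequence reads 5′ to 3′ along the gene.
Hmgcs1 (chr13:119690101-119690350, plus strand): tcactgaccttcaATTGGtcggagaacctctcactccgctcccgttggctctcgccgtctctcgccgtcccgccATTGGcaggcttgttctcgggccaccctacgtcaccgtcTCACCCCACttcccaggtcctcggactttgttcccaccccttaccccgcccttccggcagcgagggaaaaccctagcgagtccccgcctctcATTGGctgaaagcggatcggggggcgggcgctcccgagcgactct
Mvk (chr5:114444019-114444268, plus strand): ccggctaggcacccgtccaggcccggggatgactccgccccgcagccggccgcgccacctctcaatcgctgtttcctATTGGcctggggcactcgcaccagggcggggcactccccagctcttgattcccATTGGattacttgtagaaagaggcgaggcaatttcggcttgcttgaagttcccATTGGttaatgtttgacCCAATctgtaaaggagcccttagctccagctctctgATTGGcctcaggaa
Fasn (chr11:120824548-120824797, minus strand): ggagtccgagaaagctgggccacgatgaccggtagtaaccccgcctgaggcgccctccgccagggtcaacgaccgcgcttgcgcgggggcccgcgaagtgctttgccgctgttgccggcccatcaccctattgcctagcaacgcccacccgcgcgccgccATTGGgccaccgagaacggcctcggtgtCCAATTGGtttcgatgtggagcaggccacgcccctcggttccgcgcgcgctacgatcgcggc
Fads2 (chr19:10101504-10101753, minus strand): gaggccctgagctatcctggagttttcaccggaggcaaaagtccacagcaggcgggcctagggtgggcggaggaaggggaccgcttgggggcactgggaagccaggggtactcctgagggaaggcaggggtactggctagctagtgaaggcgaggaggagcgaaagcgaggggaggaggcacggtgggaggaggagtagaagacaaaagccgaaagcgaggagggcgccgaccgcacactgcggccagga
Scap (chr9:110333038-110333287, plus strand): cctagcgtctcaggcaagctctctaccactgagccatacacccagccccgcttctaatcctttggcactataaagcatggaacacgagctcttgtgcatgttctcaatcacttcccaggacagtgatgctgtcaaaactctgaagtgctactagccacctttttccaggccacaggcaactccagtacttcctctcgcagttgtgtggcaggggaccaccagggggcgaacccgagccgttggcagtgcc
The single TCACNCCAC match of Hmgcs1 began at position -137 relative to the start. As described later, Fads2, with no match to TCACNCCAC or CCAAT in this window, was among the genes with the deepest falls. Mvk and Fasn, with CCAAT matches, fell too. The 2 genes not called were Hmgcs1, with both of these motifs, and Scap, with neither of them but with a CACGTG match outside the printed bases. Whether matches and changes go together was not tested.

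With RANKL, 30 of the 32 genes fell and none rose (edgeR quasi-likelihood test on the mean of the female and male log2 fold changes, adjusted p under 0.05). Of all 13236 genes tested, 31.3% fell and 33.4% rose as the background to this count. A fall of at least 2-fold was called for 22 members, against 13.1% of all genes tested. The median log2 fold change was -1.52 over the 32 members and 0.02 over all genes tested. In 24 members every library with RANKL lay below every library without it, an order seen in 22.7% of all genes tested. The 32 genes together made up 0.361 to 0.626% of a library's counts without RANKL and 0.160 to 0.292% with it. In such bulk libraries, fewer cells of a type and less RNA per cell cannot be told apart. The 2 genes that were not called were Hmgcs1 and Scap.

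**Figure D1:**
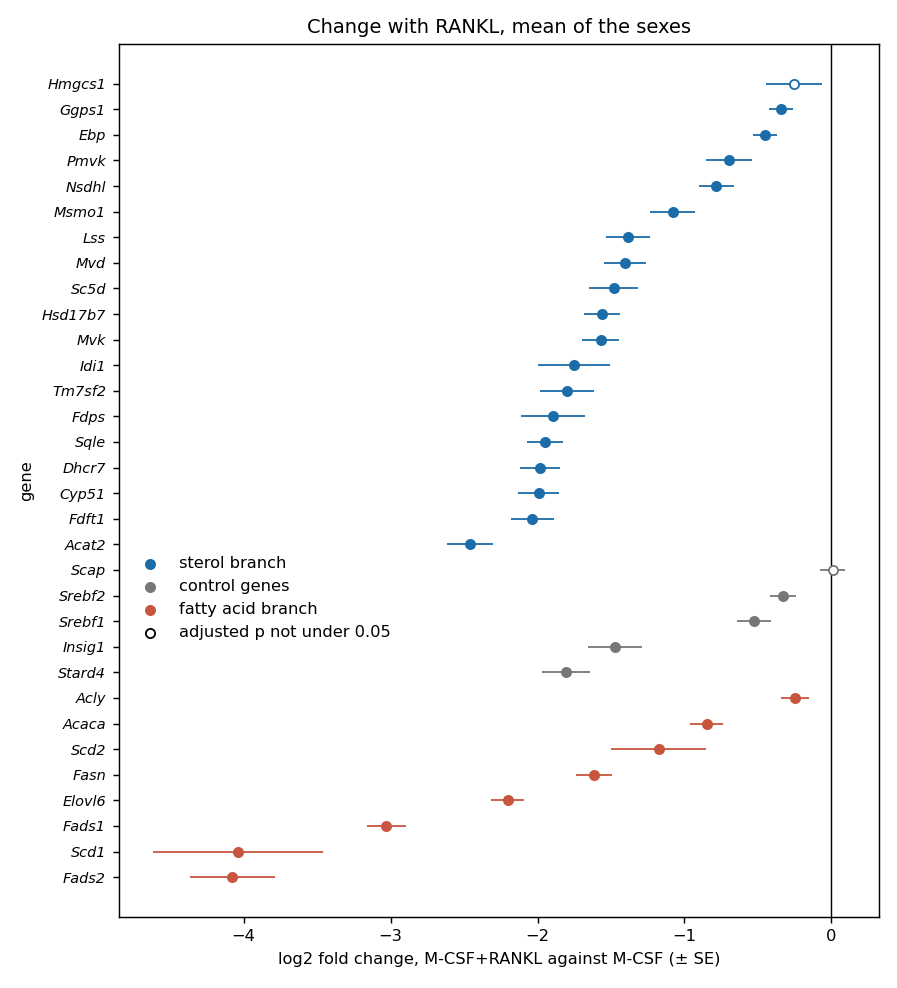
Log2 fold change of each of the 32 genes with RANKL (M-CSF+RANKL against M-CSF, mean of the sexes, points) with its standard error (bars); filled points are genes called at an adjusted p under 0.05 and open points are not. The fatty acid branch holds the 3 deepest falls (Fads2, Scd1 and Fads1) and 1 of the smallest (Acly), while 9 of 11 enzymes from squalene onward fell at least 2-fold.

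The sterol branch begins with the mevalonate enzymes, of which 5 of 6 fell. Acat2, the cytosolic thiolase that joins acetyl-CoA units, fell furthest in this branch. Its level was 82.2, 64.7 and 73.1 CPM in the Female M-CSF libraries and 15.1, 13.3 and 10.9 CPM in Female M-CSF+RANKL. Male libraries were at 83.9, 100.3 and 55.9 CPM with M-CSF and at 14.8, 18.4 and 11.1 CPM in Male M-CSF+RANKL. The groups did not overlap, and the log2 fold change was -2.46 ± 0.16 (SE, adjusted p = 1.00e-08), so 18.2% of the level was left. Hmgcs1, HMG-CoA synthase, takes the next step and did not pass the test. It was at 177, 101 and 95.3 CPM in Female M-CSF against 129.9, 73.8 and 91.1 CPM in Female M-CSF+RANKL, and at 140.3, 194 and 106 CPM in Male M-CSF against 129, 150.3 and 114 CPM in Male M-CSF+RANKL. The ranges overlapped in both sexes, and its log2 fold change was -0.25 ± 0.19 (adjusted p = 0.259). Of its exon length, 12.1% lies opposite Gm48342. Libraries of the same replicate number within a sex deviated together, and with the replicate number as a block the Hmgcs1 value was -0.23 ± 0.08 and passed (adjusted p = 0.0173).

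The kinases and the decarboxylase that turn mevalonate into isopentenyl diphosphate fell by unequal amounts. Mvk, mevalonate kinase, went from 31.9 to 53.1 CPM without RANKL to 11.8 to 16.8 CPM with it (log2 fold change -1.57 ± 0.12, adjusted p = 8.04e-08). Mvd, the decarboxylase, went from 56.5 to 90.7 CPM to 20.8 to 35.4 CPM (-1.41 ± 0.14). Neither gene had overlapping groups. Pmvk, the kinase between them, fell less, from 37.8 to 67.3 CPM to 26.2 to 40.0 CPM with overlapping ranges (-0.70 ± 0.16, adjusted p = 0.00141). Idi1, the isomerase that makes dimethylallyl diphosphate, went from 19.8 to 36.8 CPM to 3.60 to 11.4 CPM (-1.75 ± 0.24). At the isoprenoid step the 2 synthases differed. Fdps, farnesyl diphosphate synthase, fell to 26.9% of its level (-1.90 ± 0.22, adjusted p = 3.75e-06; 8.78 to 22.1 CPM without and 2.92 to 6.31 CPM with RANKL). Ggps1, geranylgeranyl diphosphate synthase, kept 78.9% (-0.34 ± 0.08, adjusted p = 0.00263; 23.9 to 30.4 CPM without and 20.6 to 24.3 CPM with RANKL). Differences in the size of the fall between genes were not tested, here or below. Of the Fdps exon length, 26.7% is shared with Gm43738 on the same strand, so part of its reads is uncertain.

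From squalene onward all 11 enzymes fell, 9 of them at least 2-fold, with a median log2 fold change of -1.56. Fdft1, squalene synthase, which commits farnesyl diphosphate to sterols, fell 4.10-fold (-2.03 ± 0.15), from 74.2 to 106 CPM to 15.7 to 28.5 CPM, and 18.3% of its exon length lies opposite Ctsb. Sqle, squalene epoxidase, was at 224, 176 and 202 CPM in Female M-CSF and 64.5, 45.6 and 42.9 CPM in Female M-CSF+RANKL. Male libraries were at 223, 236 and 183 CPM with M-CSF and at 56.2, 66.9 and 46.7 CPM in Male M-CSF+RANKL. All 6 libraries with RANKL lay below all 6 without (-1.95 ± 0.12, adjusted p = 8.67e-09). Cyp51, the lanosterol demethylase, had a like pattern, at 154 to 239 CPM without and 35.3 to 59.9 CPM with RANKL (-1.99 ± 0.14, adjusted p = 2.15e-08). Dhcr7, the reductase of the last step, went from 46.7 to 89.7 CPM to 15.3 to 19.2 CPM (-1.98 ± 0.14). Between these, Lss (lanosterol synthase, -1.38 ± 0.15), Sc5d (a sterol desaturase, -1.48 ± 0.16), Hsd17b7 (a keto-sterol reductase, -1.56 ± 0.12) and Tm7sf2 (another sterol reductase, -1.80 ± 0.18) also fell by more than 2-fold. Of the Tm7sf2 exon length, 12.1% is shared with Vps51 on the same strand.

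The next 3 enzymes had smaller estimates. Msmo1, the methylsterol monooxygenase, fell by 1.08 ± 0.15 on the log2 scale, from 150.3 to 237 CPM to 72.9 to 118 CPM. Nsdhl, the sterol dehydrogenase that acts with it, fell by 0.78 ± 0.12, from 60.2 to 93.0 CPM to 38.5 to 49.7 CPM. Ebp, the sterol isomerase, showed the smallest fall of these enzymes, 0.45 ± 0.08 (adjusted p = 0.000262), and went from 75.8 to 95.7 CPM down to 53.3 to 74.5 CPM. Ebp levels with and without RANKL were close but did not overlap.

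**Figure D2:**
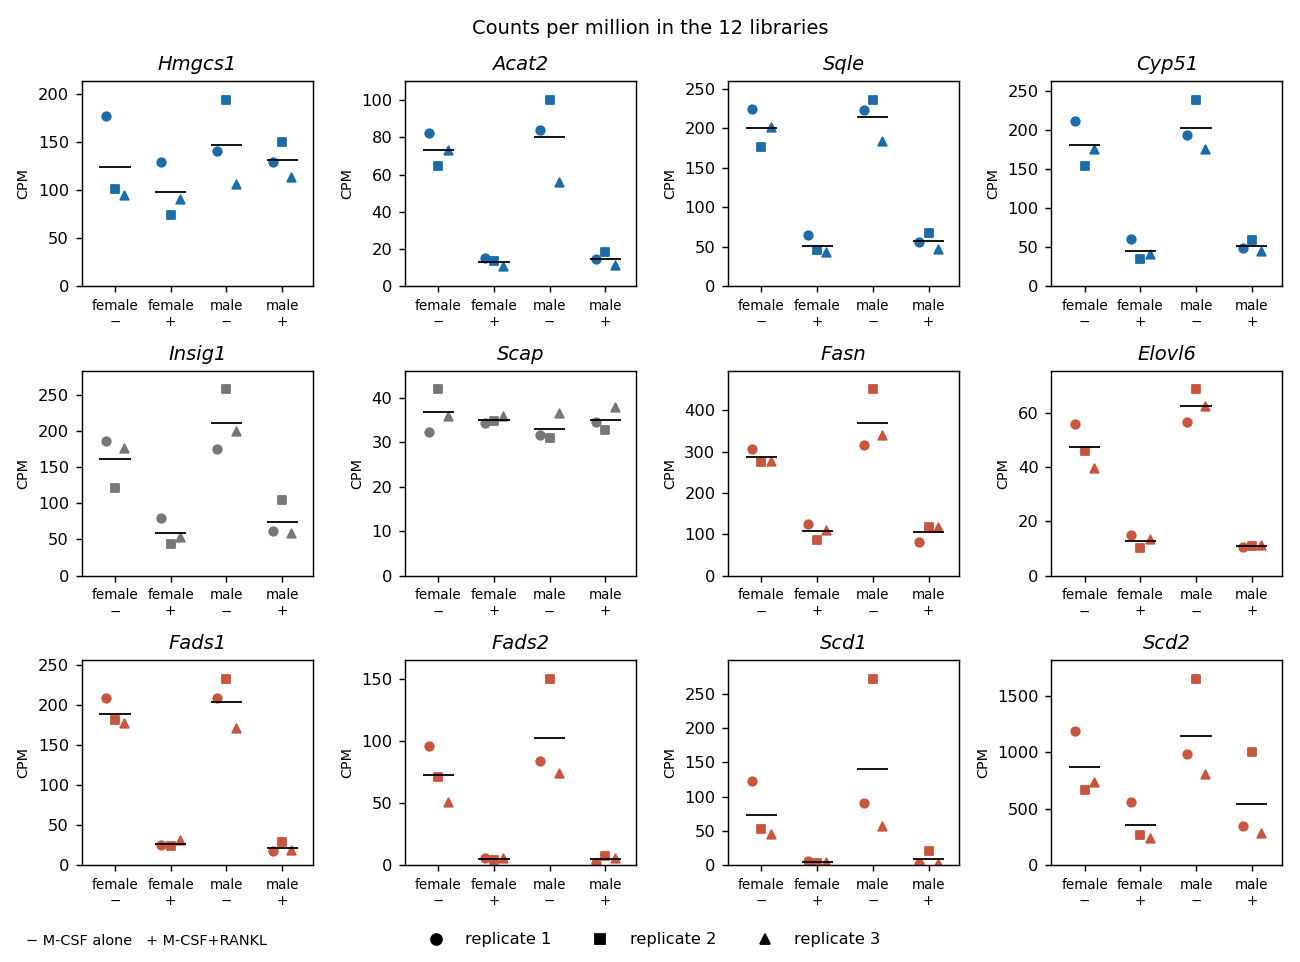
Level in CPM (linear axis from 0) of 12 genes in each library, with the sexes and treatments on the x axis, a bar at each group's mean and a marker for each replicate number. Blue marks the sterol branch, grey the control genes and red the fatty acid branch. Hmgcs1, Scap and Scd2 overlap between treatments, and Fads1 falls from 171 to 232 CPM to 17.4 to 31.0 CPM. Male replicate 2 stands highest of its group for Scd1 and Scd2 in both treatments.

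All 8 genes of the fatty acid branch fell, 6 of them at least 2-fold, with a median log2 fold change of -1.91 and a range from -4.08 to -0.25. The 4 desaturases had a median of -3.53, with Scd2 at -1.18, and the 4 enzymes that supply and build the chain had a median of -1.23. Fads2, the desaturase of the first step toward long polyunsaturated fatty acids, was at 95.9, 71.2 and 51.3 CPM in Female M-CSF and at 5.55, 4.59 and 6.03 CPM in Female M-CSF+RANKL. In males it was at 83.9, 150.3 and 74.6 CPM in M-CSF and at 1.63, 7.15 and 5.64 CPM in M-CSF+RANKL. It fell 16.9-fold (-4.08 ± 0.29, adjusted p = 2.58e-08), which ranked 103 from the lowest of the 13236 genes tested. Fads1, the next desaturase of that pathway, went from 209, 181 and 178 CPM to 25.4, 23.4 and 31.0 CPM in females and from 208, 232 and 171 CPM to 17.4, 28.7 and 18.9 CPM in males. Its replicates were the tightest of the desaturases, and it fell 8.16-fold (-3.03 ± 0.13, adjusted p = 2.18e-10, rank 238). Both lie on chromosome 19 (GRCm38, Fads1 at 10182888 to 10196877 and Fads2 at 10062765 to 10101746) and resemble each other and Fads3, so reads may be shared between these copies.

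The stearoyl-CoA desaturases, which make oleate and palmitoleate, varied most between replicates. Scd1 was at 123, 52.7 and 46.2 CPM in Female M-CSF and 5.88, 3.13 and 4.02 CPM in Female M-CSF+RANKL. Male libraries were at 91.5, 272 and 56.7 CPM with M-CSF and at 1.70, 21.4 and 3.04 CPM in Male M-CSF+RANKL. The groups did not overlap, and the log2 fold change was -4.04 ± 0.58 (adjusted p = 2.82e-05, rank 109). Without Male M-CSF+RANKL replicate 2 it was -4.97, and without Male M-CSF replicate 2 it was -3.58. Scd2 had the smaller estimate. It was at 1191, 668 and 736 CPM in Female M-CSF and 556, 270.2 and 241 CPM in Female M-CSF+RANKL. Male libraries were at 982, 1647 and 809.7 CPM with M-CSF and at 345, 1006 and 287 CPM in Male M-CSF+RANKL. Male M-CSF+RANKL replicate 2 lay above 4 of the 6 libraries without RANKL, and Scd2 passed over the mean of the sexes (-1.18 ± 0.32, adjusted p = 0.0057) and in females (-1.28, adjusted p = 0.0312) but not in males (-1.07, adjusted p = 0.0622). With the replicate block it passed in males too (-1.24 ± 0.15, adjusted p = 1.27e-05). With 1 library left out, the male value ran from -1.85 (adjusted p = 0.00181), without Male M-CSF+RANKL replicate 2, to -0.73 (0.236), without Male M-CSF replicate 2. It also passed without Male M-CSF replicate 3 (-1.27, 0.0463) and without Female M-CSF+RANKL replicate 1 (-1.06, 0.0438). In females the call ended without Female M-CSF replicate 1 (-0.98, adjusted p = 0.123), Female M-CSF+RANKL replicate 2 (-1.13, 0.0906) or Female M-CSF+RANKL replicate 3 (-1.06, 0.107). Scd1 fell past the threshold in each sex with any 1 library left out, and in males its value ran from -5.85 to -3.09, without the same 2 male libraries. Scd1 and Scd2 are near copies that lie close together on chromosome 19, and their reads may be shared.

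Among the enzymes of the chain, Elovl6, which elongates palmitate to stearate, was at 39.8 to 68.7 CPM without RANKL and 10.3 to 14.8 CPM with it (-2.20 ± 0.11, adjusted p = 8.68e-10). Fasn, the fatty acid synthase, was at 308, 276 and 277 CPM against 124, 86.3 and 111 CPM in females, and at 317, 451 and 339.6 CPM against 81.1, 117 and 117 CPM in males (-1.62 ± 0.12, adjusted p = 6.17e-08). Neither gene had overlapping groups. Acaca, the acetyl-CoA carboxylase that feeds the synthase with malonyl-CoA, fell by 0.85 ± 0.11, from 62.0 to 86.0 CPM to 30.6 to 49.3 CPM. Acly, ATP citrate lyase, which supplies acetyl-CoA to both branches, had the smallest estimate of this branch. Its level was 301 to 458 CPM without and 271 to 348 CPM with RANKL, with overlapping ranges, and its fall of 0.25 ± 0.09 passed narrowly (adjusted p = 0.0329). Leaving out any 1 of 6 libraries ended the Acly call, with adjusted p from 0.0543 to 0.0904: these were Female M-CSF replicates 1 and 3, Female M-CSF+RANKL replicates 2 and 3, Male M-CSF replicate 2 and Male M-CSF+RANKL replicate 1.

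The control genes split in size. Insig1, which holds SREBPs in the endoplasmic reticulum, was at 185, 122 and 177 CPM in Female M-CSF and 79.3, 44.1 and 53.6 CPM in Female M-CSF+RANKL. Male libraries were at 176, 258 and 200.3 CPM with M-CSF and at 61.6, 104 and 58.7 CPM in Male M-CSF+RANKL (-1.47 ± 0.18, adjusted p = 7.73e-06). Stard4, a carrier of sterol between membranes, went from 82.7 to 123 CPM to 19.1 to 42.3 CPM (-1.81 ± 0.17). Neither gene had overlapping groups. The genes of the transcription factors changed less. Srebf1, which encodes the factor best known for fatty acid genes, fell by 0.53 ± 0.11 (adjusted p = 0.00107), from 112 to 171 CPM to 78.9 to 121 CPM. Srebf2, which encodes the factor best known for sterol genes, fell by 0.33 ± 0.09 (adjusted p = 0.0054), from 224 to 306 CPM to 166 to 231 CPM. Both had overlapping ranges. Scap was at 31.0 to 42.0 CPM without and 32.8 to 38.1 CPM with RANKL (0.01 ± 0.08, adjusted p = 0.932). Of its exon length, 13.2% lies opposite 5830462I19Rik, and the sign of this small value turned with the scaling, from 0.02 with DESeq2's size factors to -0.0030 with library totals. These are transcript levels, and the processing of SREBP proteins was not measured.

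The branches were set side by side by their counts and levels. In the sterol branch 18 of 19 genes fell, 14 of them at least 2-fold, with a median of -1.56 and a range from -2.46 to -0.25, and in the fatty acid branch 8 of 8 fell. Averaged over its genes, the sterol branch had a mean log2 CPM of 5.94 ± 0.25 (SD, n = 3) in Female M-CSF and 4.54 ± 0.22 in Female M-CSF+RANKL. The male values were 6.08 ± 0.28 and 4.67 ± 0.25. The fatty acid branch went from 7.20 ± 0.27 to 5.20 ± 0.27 in female libraries and from 7.57 ± 0.37 to 5.18 ± 0.57 in male ones. The control genes went from 6.77 ± 0.08 to 5.93 ± 0.23 in females and, in males, from 6.94 ± 0.16 to 6.11 ± 0.25. In each branch all 6 libraries with RANKL lay below all 6 without. The mean difference with RANKL, over the sexes, was -1.41 for the sterol branch, -2.20 for the fatty acid branch and -0.84 for the control genes, so the fatty acid branch lay 0.79 lower than the sterol branch. As the 8 genes include the desaturases with the deepest falls, this value describes these genes and was given no test.

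**Figure D3:**
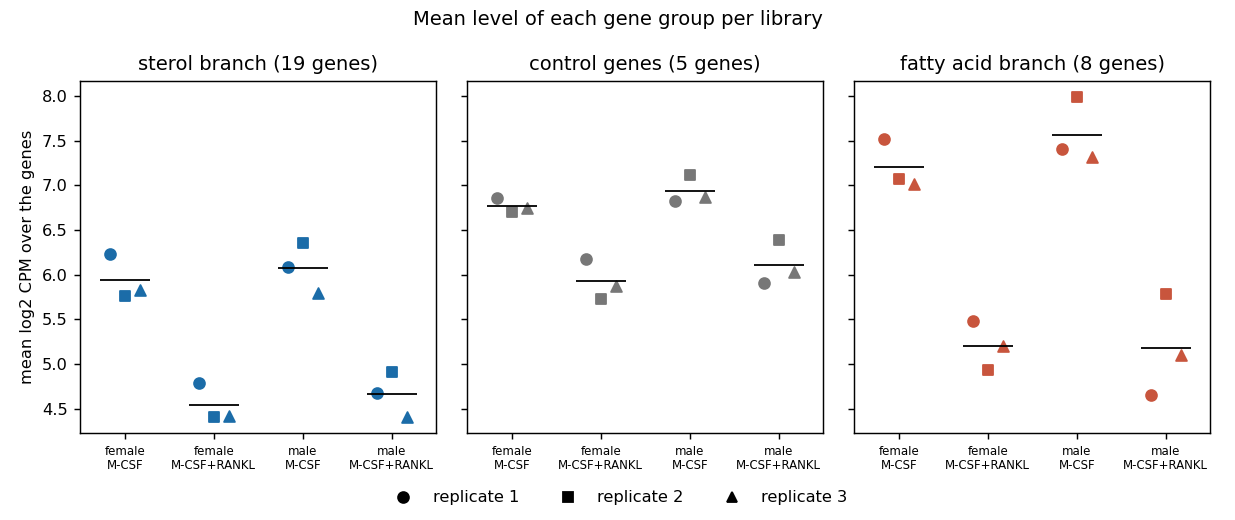
Mean log2 CPM over the genes of the sterol branch, the control genes and the fatty acid branch in each of the 12 libraries (markers show the replicate number, bars the group mean). Libraries with RANKL lie below those without in each panel, and female replicate 1 and male replicate 2 are highest of their group in each panel and both treatments.

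Within each group the members tended to be high or low in the same libraries. In Female M-CSF replicate 1, 18 of 19 sterol genes and 8 of 8 fatty acid genes lay above their group mean, and in Male M-CSF replicate 2 the counts were also 18 of 19 and 8 of 8. With RANKL the libraries of the same numbers stood out, with 18 of 19 and 7 of 8 in Female M-CSF+RANKL replicate 1 and 18 of 19 and 8 of 8 in Male M-CSF+RANKL replicate 2. The median within-group SD of log2 CPM was 0.30 in the sterol branch, 0.25 in the fatty acid branch and 0.23 in the control genes, against 0.21 over all genes tested and 0.17 over the 8920 of them above a log2 CPM of 3. Scd1 had an SD of 1.18, higher than 99.7% of genes tested, Scd2 of 0.68 and Fads2 of 0.66, while Ggps1 had 0.12 and Scap 0.13. Taken between same-numbered cultures, the change of Scd2 was -1.10, -1.31 and -1.61 in females and -1.51, -0.71 and -1.50 in the male cultures, and that of Fads1 was -3.03, -2.94 and -2.51 in females and -3.57, -3.01 and -3.17 in males. Without male replicate 2 in both treatments, a choice made after these libraries were seen to stand apart, 29 of 32 genes fell, Scd1 was at -4.51 and Scd2 at -1.39, and the branch means were -1.40 for sterol and -2.24 for fatty acid genes. Of all 13442 genes tested in that fit, 3811 fell.

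Levels between genes were compared per length, as CPM divided by the merged exon length in kilobases (RPKM, mean ± SD over 6 libraries). Without RANKL the order was led by Scd2 at 184 ± 67.1, Acly at 70.2 ± 9.80, Insig1 at 60.2 ± 14.2, Cyp51 at 43.5 ± 6.87 and Fads1 at 40.8 ± 4.94, and Acly and Insig1, like Cyp51 and Fads1, were within their spread of each other. Tm7sf2 at 3.41 ± 0.84 and Fdps at 3.61 ± 1.07 were lowest and did not differ beyond their spread. Of their exon lengths, 12.1% and 26.7% are shared with another gene on the same strand, so these low values are uncertain. With RANKL, Scd2 at 82.5 ± 53.9 and Acly at 59.0 ± 6.26 still led, followed by Ebp at 27.8 ± 3.07, Srebf2 at 27.4 ± 3.60 and Hmgcs1 at 24.9 ± 6.11, whose values overlapped. Hmgcs1 thus moved from rank 14 to rank 5 of the 32 genes, and Fads1 moved from rank 5 to rank 20 and Fads2 from rank 16 to rank 29.

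The change was then compared between the sexes. In females 28 of the 32 genes fell (25.1% of all genes tested fell and 26.8% rose), and in males 28 fell as well (26.6% and 28.4%). The authors' deposited table also gave 28 falls and 0 rises in each sex. The genes not called were Hmgcs1, Srebf2, Scap and Acly in females, and Hmgcs1, Scap, Scd2 and Acly in males. Srebf2 lay close to the threshold in both sexes (adjusted p = 0.0534 for females, 0.0336 for males). With the replicate block, 30 genes fell in each sex, with Hmgcs1 (adjusted p = 0.0209) and Srebf2 (0.0104) added in females and Scd2 and Acly (0.0074) in males. The number of all 13236 genes that fell grew with the block too, from 3326 to 3881 in females and from 3523 to 4038 in males. For the difference between the female and male change, 0 of the 32 genes were called, and 0 of all 13236 (0%), by edgeR and by DESeq2 alike. Differences ran from -0.21 to 0.66 on the log2 scale, all with an adjusted p of 0.999925, and 27 of the 32 had a 95% interval within 2-fold in either direction. The median difference, female minus male, was 0.35 in the fatty acid branch, with 6 of 8 above 0. It was 0.01 in the sterol branch, with 10 of 19 above 0, and 0.01 over all genes tested. These medians were given no test. Only 1 gene had an unadjusted p under 0.05: Elovl6 fell by 1.87 in females and by 2.53 in males, a difference of 0.66 ± 0.22 (95% interval 0.19 to 1.13, unadjusted p = 0.00936). Elovl6 is named as the lowest of 32 p-values, and its adjusted p was 0.999925 without and 0.895 with the replicate block. The number of all genes tested under this unadjusted threshold was not counted. For Scd1 the interval ran from -2.41 to 2.24 in the fit without the replicate block. That fit could not detect a sex difference of several fold in either direction. With the block the difference was 0.24 ± 0.39 for Scd1 and -0.10 ± 0.21 for Scd2. Without it their SE were 1.08 and 0.64. The blocked fit also called 0 of the 13236 genes for this difference.

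**Figure D4:**
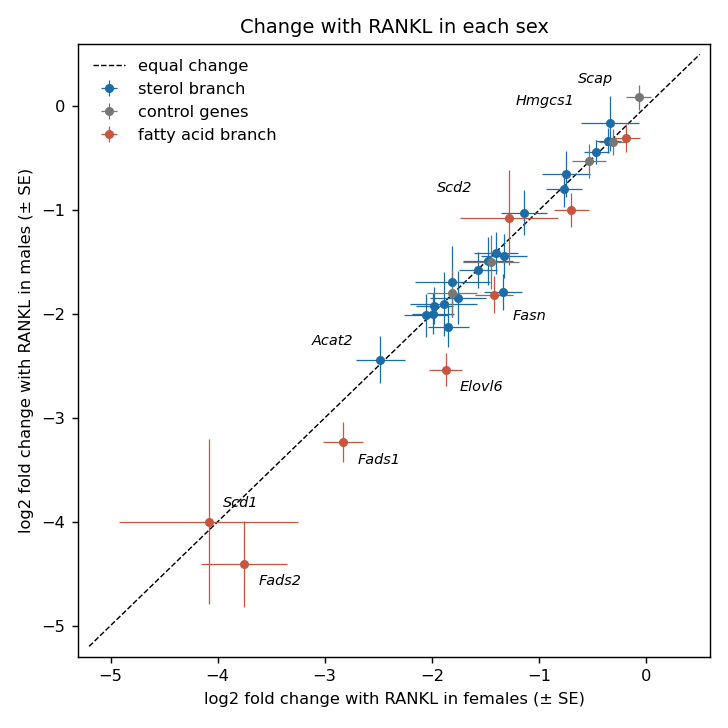
Log2 fold change with RANKL in males against that in females for the 32 genes, with standard errors and a dashed line of equal change. Points lie near the line, with 6 of 8 fatty acid genes and 10 of 19 sterol genes below it. Elovl6 (-1.87 in females and -2.53 in males) and Fads2 (-3.75 and -4.40) lie furthest below. Hsd17b7 (-1.34 and -1.79) and Fads1 (-2.83 and -3.23) are next. None of these differences passed the test.

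Within each treatment the sexes were also compared directly. With M-CSF alone, 0 of the 32 genes were called, against 6 of all genes tested (0.0453%), and 29 were lower in females than in males, by up to 0.93 on the log2 scale for Scd1 (95% interval -2.41 to 0.56). Differences ran from -0.93 to 0.15, with adjusted p from 0.873 to 1, and 29 had an interval within 2-fold. At an unadjusted p under 0.05 there were 2: Elovl6 was lower in females by 0.41 ± 0.15 and Hsd17b7 by 0.37 ± 0.17. Both had an adjusted p of 0.873, and the number of all genes tested under this unadjusted threshold was not counted. With M-CSF+RANKL, 0 of the 32 were called, against 7 of all genes (0.0529%), and 0 had an unadjusted p under 0.05. There 25 were lower in females, with differences from -1.01 to 0.29, and 27 had an interval within 2-fold. DESeq2 also called 0 of the 32 in either treatment. All 11 tested neutrophil markers were higher in females in both treatments, with log2 differences of 1.11 to 2.10 with M-CSF and 0.86 to 2.22 with RANKL; 7 and 8 of them had an unadjusted p under 0.05 and 0 were called. Their summed level was 102 to 319 CPM in Female M-CSF against 57.5 to 85.2 CPM in Male M-CSF, and 107 to 331 CPM against 60.3 to 92.3 CPM with RANKL. The 18 cell division genes were all higher in females with RANKL, by a median of 0.21, again with 0 called, and 15 of them with M-CSF, by a median of 0.11. The part of either list in the sex comparison was not tested. The genes share their libraries and move together between cultures, so a count of 29 or 25 genes in 1 direction is not a count of independent observations, and without male replicate 2 in both treatments the Scd1 difference with M-CSF was -0.02 and with RANKL 0.85. Ebp and Nsdhl, both on the X chromosome, differed by 0.13 ± 0.12 and -0.07 ± 0.17 with M-CSF and by 0.10 ± 0.12 and -0.03 ± 0.17 with RANKL.

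**Figure D5:**
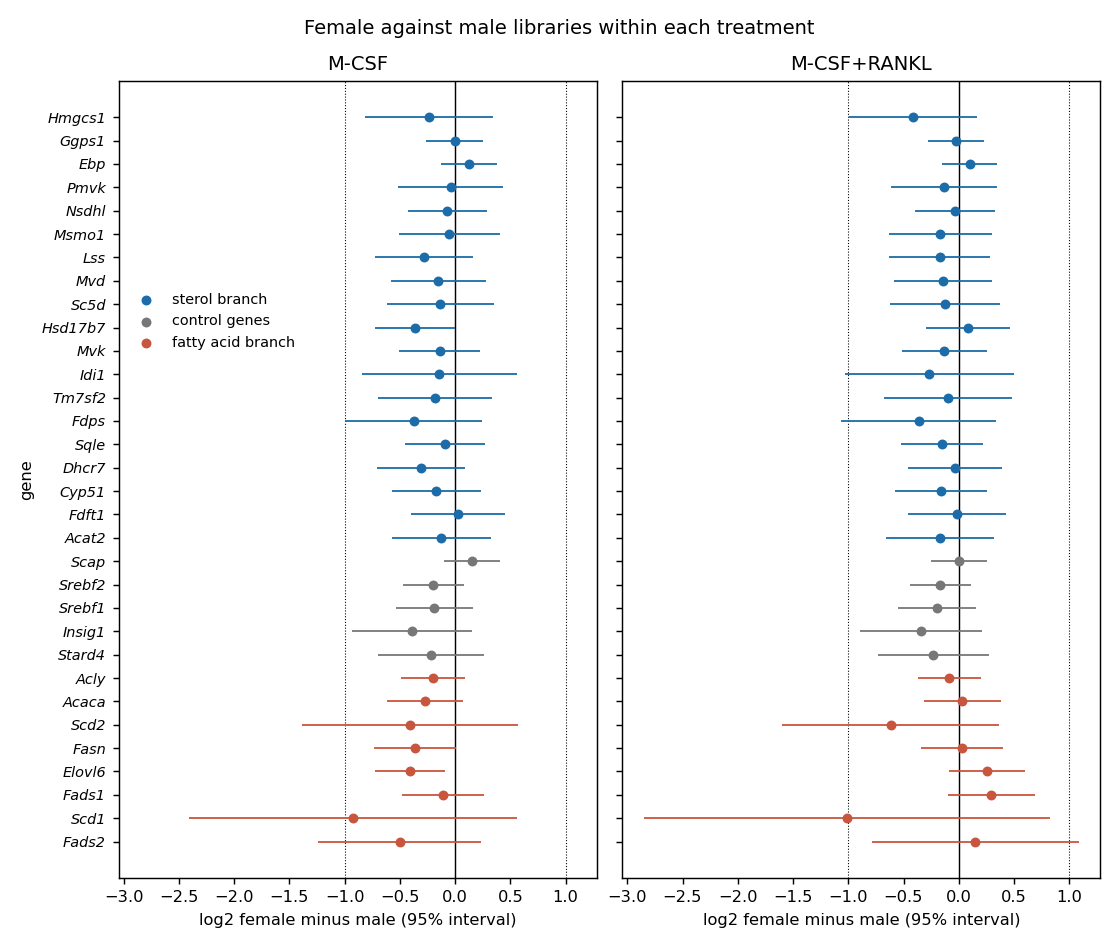
Female minus male difference (log2, points) with its 95% interval (lines) for the 32 genes with M-CSF (left) and M-CSF+RANKL (right); dotted lines mark a 2-fold difference. Most points with M-CSF lie left of 0, no gene passed the test, and the intervals of Scd1 (-2.41 to 0.56 on the left) are the widest.

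Other genes of the pathways were read from lists chosen by function, with earlier results of these data known. Of 27 tested genes of the sterol pathway outside the 32, 15 fell and 8 rose, with a median of -0.27. Against the 31.3% of all genes tested that fell and the 33.4% that rose, the share of these genes that fell was above the background. The share that rose was not. Among those that fell were Aacs, which activates acetoacetate for lipid synthesis (92.4 to 135 CPM without and 22.2 to 30.6 CPM with RANKL, -2.03 ± 0.11), Lbr, a lamin receptor with sterol reductase activity (-1.30 ± 0.14), Mylip, a ubiquitin ligase for lipoprotein receptors (-1.23 ± 0.21), and Por, the electron donor of P450 enzymes such as Cyp51 (-1.19 ± 0.08). The 5 that rose most were Nr1h3, the oxysterol receptor LXR alpha (1.67 to 5.28 CPM without and 9.44 to 17.0 CPM with RANKL, 2.15 ± 0.21), Npc2, which moves cholesterol out of lysosomes (0.91 ± 0.08), Nus1, of dolichol synthesis (0.85 ± 0.08), Acat1, the mitochondrial thiolase (0.68 ± 0.08), and Insig2, the second INSIG gene (0.53 ± 0.08). Acat1 and Insig2 thus rose while their relatives among the 32, Acat2 and Insig1, fell, both past the threshold. Of 8 genes that attach or finish isoprenoid groups on proteins, 4 fell (Rce1, a protease, -0.60 ± 0.11; Fntb, -0.46 ± 0.09, and Fnta, -0.20 ± 0.08, the farnesyltransferase subunits; Icmt, a methyltransferase, -0.30 ± 0.08) and 1 rose (Rabggtb, of Rab geranylgeranyl transferase, 0.31 ± 0.08), a small set beside the same background.

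Of 26 tested fatty acid genes outside the 32, 15 fell and 10 rose, with a median of -0.57. The share that rose was near the 33.4% of all genes tested, and the share that fell was above the background of 31.3%. Fads3, the neighbour and near copy of Fads1 and Fads2, fell furthest, from 8.70 to 11.7 CPM to 0.568 to 1.60 CPM (-3.18 ± 0.19, adjusted p = 3.51e-09). Acss2, which makes acetyl-CoA from acetate, went from 16.6 to 37.7 CPM to 4.56 to 7.00 CPM (-2.02 ± 0.18). Me1 and G6pdx, which supply NADPH, fell by 1.90 ± 0.15 and 1.65 ± 0.07, and Hacd2, a dehydratase of chain elongation, by 1.31 ± 0.10. The genes that rose most were Elovl7, an elongase at very low levels (0 to 0.452 CPM without and 0.780 to 5.54 CPM with RANKL, 4.32 ± 0.56), Acacb, the mitochondrial acetyl-CoA carboxylase (1.90 ± 0.27), Acsl1, which activates fatty acids (1.59 ± 0.06), Oxsm, of mitochondrial fatty acid synthesis (1.12 ± 0.12), and Hacd1, another dehydratase (0.99 ± 0.12). Acacb rose past the threshold while Acaca fell past it.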

How the data were processed

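Per the labels' protocols, RNeasy Plus RNA went into poly(A) libraries that keep strand. Tools and build per the submitters' processing notes are STAR 2.7.3a, fastp, edgeR and mm10. Which program counted reads, on which annotation and with what strand setting, is not given in the sources used here. The authors deposited whole-number read counts per gene, from which all values except those credited to the authors' table were computed. The authors' deposited table of comparisons gives log2 fold changes, and false discovery rates as adjusted p-values; the authors' other deposited tables were not used here.

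Genes were filtered with filterByExpr (minimum count 10, which left 13236 genes), scaled by TMM and fitted in 1 edgeR 4.0.16 quasi-likelihood model of the 4 groups (R 4.3.3). P-values were adjusted by Benjamini-Hochberg over all tested genes and called below 0.05. The SE is the log2 fold change divided by the square root of its F value. CPM use TMM-scaled totals, and mean log2 CPM adds a prior count of 2. RPKM use merged exon lengths of GENCODE vM21, which held 23855 of the 23863 gene IDs. Fits were tested on simulated counts of independent libraries, so that test does not cover the replicate pairing.

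Within a sex, libraries with the same replicate number in their titles were read as pairs. Deviations from the group means correlated at 0.30 to 0.71 in the 6 same-numbered pairs, and at -0.62 to -0.0096 in the 12 others. Deviations balance out within a group, so the 12 others are not independent of the 6. Across the sexes within a treatment, correlations ran from -0.50 to 0.52 for same numbers and from -0.61 to 0.73 for other numbers. The members and lists were chosen with earlier results of these data known. Named genes are the 32 members, 4 checks (Acp5, Ctsk, Mrc1, Runx1), and up to 5 called genes a direction of each other list; 1 such gene is not reported here. Ctsk and Mrc1, an osteoclast and a macrophage gene, changed by 12.20 and -5.91. Alternatives were DESeq2 1.42.0, its size factors in edgeR, library totals, other filters, the replicate block and leaving out libraries.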

Additional observations from a re-analysis of the deposited data

How the results depend on the processing

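Of the 32 genes, 29 to 31 fell over the mean of the sexes in all alternatives run, with 0 that rose; Acly was the only gene lost, when 1 of 6 libraries or both male replicates 2 were left out, and Hmgcs1 the only gene gained, with the replicate block. The numbers per sex were 24 to 30 in females and 25 to 30 in males, where Pmvk, Ggps1, Srebf1, Srebf2 and Scd2 crossed the threshold in some alternatives. In females 24 were left without Female M-CSF replicate 1 or without Female M-CSF+RANKL replicate 3, and in males 25 without Male M-CSF replicate 2. The replicate block changed no call other than those of Hmgcs1, Srebf2, Scd2 and Acly given above. Of all 13236 genes tested, 4145 fell over the mean of the sexes without the block and 4539 with it. The Scap value turned sign, at -0.00074 with no low count filter, -0.0030 with library totals and -0.034 to 0.063 when 1 library was left out; the cause was not tested. The fatty acid branch lay 0.66 to 0.88 below the sterol branch in the change with RANKL when 1 library was left out, and 0.79 with library totals. Fads2 and Scd1 rest on as few as 23 and 24 counts in a library with RANKL, which limits the precision of their folds. Without the replicate block, 3 libraries per group leave some 95% intervals of the sex differences reaching beyond 2-fold. This holds for Scd1, Scd2 and Fads2 in each comparison of the sexes, and for Idi1, Elovl6 and Fdps in some.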
